A study of Mus musculus with 21 samples.

Results

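The 9 genes described here (Gfap, Serpina3n, Vim, Lcn2, Cd44, Osmr, Aspg, S1pr3 and Timp1) belong to the transcripts by which reactive astrocytes are most often recognised in mouse brain. They were taken by gene symbol from a table of 41128 symbols, and all 9 were present. The table covered 21 RNA sequencing libraries of mouse striatum, a forebrain region made mostly of medium spiny neurons, from wild type mice whose striatum was injected with adeno-associated virus (AAV, a gene carrier that does not replicate) 3 weeks before the tissue was taken. Set A held 3 libraries labelled WT, 3 labelled Cas9 and 3 labelled GCas9, and set B held 4 labelled GFP, 4 labelled Cas9 and 4 labelled GCas9. Cas9 is a nuclease that cuts DNA where a guide RNA directs it, while GFP, a fluorescent protein, edits nothing. The labels leave the name GCas9 unexplained. The study is known for a Cas9 joined to a piece of Geminin, a protein that cells degrade in part of the cell cycle, and its title speaks of a shorter Cas9 half-life. One injection protocol is attached to all libraries, so whether WT animals were injected is not known from the labels. They give the age as 3 months in one field and 3 weeks in another, and name neither the promoter of the viral cargo nor a guide RNA. The labels do not say that each library came from a separate mouse, so the p-values measure the spread between these libraries only.

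Astrocytes are the glial cells that feed neurons, clear transmitter and border the vessels. After injury, infection or inflammation they become reactive: they thicken, build up intermediate filaments and release proteins that act on neighbouring cells. Cytokines of the interleukin 6 family, which signal through the shared receptor chain gp130 (Il6st) and the transcription factor STAT3, are a main route into this state. The 9 genes cover several sides of it. Gfap and Vim encode its filament proteins. Serpina3n, Lcn2 and Timp1 encode secreted proteins, which are a protease inhibitor, a carrier of iron-binding siderophores and an inhibitor of metalloproteinases. Cd44, Osmr and S1pr3 encode surface receptors for hyaluronan, oncostatin M and sphingosine-1-phosphate, and Aspg encodes an enzyme with asparaginase activity. Other cells of the brain also make some of them, such as Vim in endothelium and microglia and Cd44 in leukocytes.

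By GENCODE M21 on the mouse build GRCm38, all 9 were protein coding. Vim lay at chr2:13573927-13582826, Lcn2 at chr2:32384633-32388252 and Cd44 at chr2:102811141-102901665. Serpina3n lay at chr12:104406729-104414329 and Aspg at chr12:112106679-112127559. Gfap lay at chr11:102887336-102900912, S1pr3 at chr13:51408639-51422797, Osmr at chr15:6813577-6874969 and Timp1 at chrX:20870166-20874735. Exons of S1pr3 overlapped those of the opposite-strand noncoding gene Gm32834, and Timp1 lay within Syn1 on the opposite strand with no shared exon. Whether reads were counted by strand is not given in the sources used here, so S1pr3 reads may include the antisense gene.

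RefSeq promoters of all 9 genes (GRCm38.p6, 250 bases before to 50 bases after the start) were searched on both strands for the letters TTCNNNGAA (bound by STAT factors), TGANTCA (AP-1) and GGGA, any 4 bases, then CC (NF-kB). The 3 shown are those of Gfap, Serpina3n and Osmr. Gfap is a filament gene of the reactive state, and Osmr is the cytokine receptor of the group. Serpina3n had the smallest limma p of the 9 in both comparisons with WT. Each promoter reads 5′ to 3′ on the strand of its gene, with the matches in capitals. The windows are chr11:102897151-102897450 on the minus strand, chr12:104406458-104406757 on the plus strand and chr15:6874264-6874563 on the minus strand.
Gfap: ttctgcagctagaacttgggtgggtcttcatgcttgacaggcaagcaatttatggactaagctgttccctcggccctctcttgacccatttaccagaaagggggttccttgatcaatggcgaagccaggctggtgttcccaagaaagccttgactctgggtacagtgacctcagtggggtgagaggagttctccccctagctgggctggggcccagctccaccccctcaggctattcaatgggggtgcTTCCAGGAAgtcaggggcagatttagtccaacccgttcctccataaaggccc
Serpina3n: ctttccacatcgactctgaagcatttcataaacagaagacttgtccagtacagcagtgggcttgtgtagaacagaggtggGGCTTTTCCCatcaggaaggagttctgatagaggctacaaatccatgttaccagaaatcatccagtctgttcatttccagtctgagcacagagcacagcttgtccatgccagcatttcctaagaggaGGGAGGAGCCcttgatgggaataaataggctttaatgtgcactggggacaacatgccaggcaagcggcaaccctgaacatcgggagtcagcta
Osmr: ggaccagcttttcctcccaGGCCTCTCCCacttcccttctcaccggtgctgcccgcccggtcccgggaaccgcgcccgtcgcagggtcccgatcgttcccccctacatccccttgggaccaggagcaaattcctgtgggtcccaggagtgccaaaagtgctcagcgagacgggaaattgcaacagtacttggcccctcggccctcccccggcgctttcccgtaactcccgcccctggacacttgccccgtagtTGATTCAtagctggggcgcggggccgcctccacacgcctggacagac
The capitals in Gfap are the STAT letters, those in Serpina3n are the NF-kB letters on one strand and then the other, and those in Osmr are the NF-kB letters followed by the AP-1 letters. No 2 of these matches overlapped. STAT letters stood in 1 of the 9 promoters (11.1%) and in 8.3% of 32851 RefSeq promoters of the same length. AP-1 letters stood in 1 of 9 (11.1%, Osmr) and in 7.81% of all. NF-kB letters stood in 4 of 9 (44.4%, Osmr, S1pr3, Serpina3n and Vim) and in 20.7% of all. These are matches of letters only, and no binding was measured.

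Reads on genes came to between 20.3 and 28.05 M per library in set A and between 6.09 and 11.1 M in set B, of which mitochondrially encoded genes took 6.0 to 7.57% and 1.03 to 2.18%. The deposited values are read counts divided by 1 size factor per library, scaled for each set alone, so levels are compared within a set. All 12 striatal neuron markers were read in every group, with summed normalized counts of 241221 to 304359 per library in set A. All 16 markers of resting astrocytes (such as Aqp4, Slc1a2 and Aldh1l1) were read in every group as well, with sums from 123504 up to 148470 for set A libraries and from 41213 up to 51632 for set B libraries. In tissue RNA, more cells of a type and more RNA per cell cannot be told apart.

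Both filament genes had their 3 lowest values of set A in the WT libraries. Gfap stood at 1768, 1403 and 1319.9 normalized counts in WT, at 10650.2, 4650.4 and 11319.5 with Cas9 and at 5400.3, 5069 and 20573 with GCas9 (replicates 1 to 3 of each). Every library with a Cas9 or GCas9 label thus lay above every WT library, and the highest value was in GCas9 replicate 3. Vim stood at 858, 753 and 907 in WT, at 1757, 1139 and 1738 with Cas9 and at 1454, 1083 and 4824 with GCas9. Vim, which astrocytes share with vessel cells, again did not overlap with WT, but the gap was smaller than for Gfap.

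Of the secreted proteins, Serpina3n was the most abundant per length and Lcn2 and Timp1 were scarce. In set A Serpina3n stood at 94.3, 99.99 and 131 in WT, at 1160.5, 1206 and 1289.6 with Cas9 and at 679, 1149 and 5598 with GCas9. The Cas9 libraries were close to each other for this gene and 11.3-fold above WT on average, while GCas9 spread over a wide range. Lcn2 stood at 3.85, 3.45 and 2.97 in WT (11 reads in all), at 27.0, 7.89 and 41.5 with Cas9 and at 10.5, 4.32 and 608 with GCas9. Timp1 stood at 1.92, 1.72 and 0 in WT (4 reads in all), at 14.6, 4.93 and 26.3 with Cas9 and at 3.84, 8.64 and 156 with GCas9. For both of these scarce transcripts the GCas9 mean was set by replicate 3, and folds against WT rest on few reads.

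The receptors differed by less. Cd44 stood at 75.1, 57.8 and 60.3 in WT, at 187, 112 and 174 with Cas9 and at 130.4, 102 and 426 with GCas9. Osmr, which pairs with gp130 to bind oncostatin M, stood at 118, 87.9 and 87.0 in WT, at 218, 168 and 225 with Cas9 and at 201, 143 and 448 with GCas9. S1pr3 stood at 118, 128 and 139 in WT, at 244, 155 and 179 with Cas9 and at 145, 147 and 587 with GCas9. None of the 3 receptors overlapped with WT, and the lower GCas9 libraries of S1pr3 were within 10 normalized counts of the highest WT library. The enzyme gene Aspg stood at 25.0, 25.0 and 17.8 in WT, at 88.4, 57.2 and 119 with Cas9 and at 46.0, 45.4 and 252 with GCas9, again without overlap with WT.

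**Figure D1:**
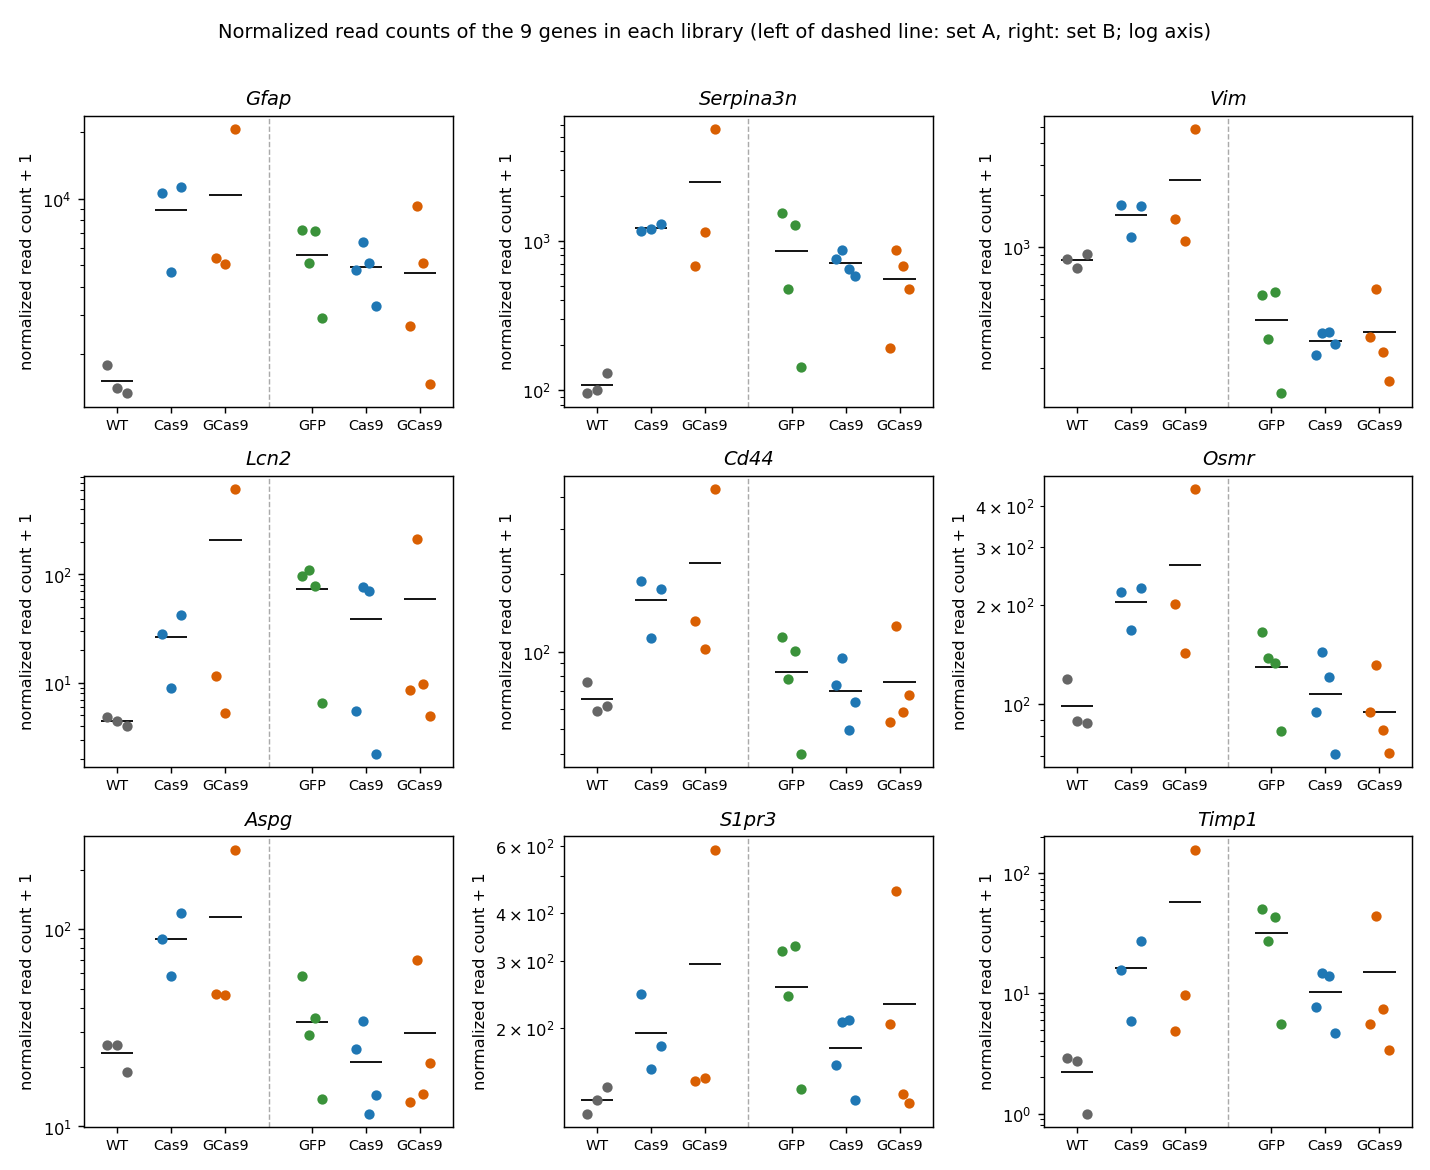
Normalized read counts plus 1 (log axis) of the 9 genes, 1 panel per gene, with 1 point per library and a bar at each group mean. In set A (left of the dashed line) the 3 WT libraries are the lowest for every gene and GCas9 replicate 3 is the highest, such as 20573 for Gfap, while the groups of set B overlap. Levels of the 2 sets are on different scales.

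The first comparison asked how these transcripts differ between striatum with Cas9 virus and WT striatum. All 9 genes were higher with Cas9, beside 49.1% of all genes, with a median log2 difference of 1.87 against -0.0031 over all 15924 genes tested. Gfap differed by 2.47 ± 0.53 (log2, SE), Serpina3n by 3.49 ± 0.62, Aspg by 1.87 ± 0.61, Cd44 by 1.26 ± 0.47 and Osmr by 1.05 ± 0.36. Differences were 2.77 ± 1.22 for Timp1, 2.32 ± 1.51 for Lcn2, 0.86 ± 0.47 for Vim and 0.56 ± 0.48 for S1pr3. The threshold was a limma adjusted p of 0.05 over all genes tested. Of the 9, 0 passed it, and 1 gene, Gpnmb, was called in all (0.00628%). The smallest limma adjusted p among the 9 was 0.405 and the largest 0.636. Without adjustment, 6 of the 9 (all but Vim, Lcn2 and S1pr3) had a limma p under 0.05, beside 6.17% of genes with such a p in the upward direction. The libraries of the 2 groups did not overlap for 9 of 9 genes, beside 10.7% of genes that were higher without overlap. A log2 difference of at least 1 was found for 7 of 9, beside 3.87% of genes. Timp1 could be tested in set A only because of GCas9 replicate 3. Over the 8 others these counts were 5, 8 and 6, and the median was 1.56. The exact permutation test, two-sided, gave 0.1 for each gene, which is the smallest p that 3 against 3 libraries allow. On the recovered reads edgeR called 0 of the 9 and DESeq2 called 2 (Gfap and Serpina3n) among 116 genes. With array weights, which let libraries count unequally, limma called 8 (all but S1pr3) among 2570 genes. With GCas9 replicate 3 left out of the shared estimate of spread, limma called Serpina3n (3.49, adjusted p = 0.000944) among 3 genes, and Timp1 was then below the limit for testing.

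The same question for GCas9 shares the WT libraries with the first comparison, so the results are not independent. All 9 genes were again higher, beside 49.9% of all genes, with a median log2 difference of 1.81. Serpina3n differed by 3.92 ± 0.62 (log2, SE), Timp1 by 3.28 ± 1.22, Lcn2 by 2.92 ± 1.51 and Gfap by 2.47 ± 0.53. Aspg differed by 1.81 ± 0.61, Cd44 by 1.46 ± 0.47, Osmr by 1.27 ± 0.36, Vim by 1.23 ± 0.47 and S1pr3 by 0.85 ± 0.48. None of the 9 passed the threshold (limma adjusted p of 0.383 to 0.749), where 1 gene, again Gpnmb, was called in all (0.00628%). Without adjustment 7 of 9 (all but Lcn2 and S1pr3) had a limma p under 0.05, beside 4.44% of genes upward. For 9 of 9 the groups did not overlap, beside 9.16% of genes upward, and 8 of 9 had a log2 difference of at least 1, beside 4.09%. Timp1 is in each of these counts, although it could be tested only because it was high in 1 GCas9 library. Over the 8 others the counts were 6, 8 and 7, and the median was 1.64. With the replicate number as a block, 0 of the 9 and 2 genes in all were called. On the recovered reads edgeR called 0 of the 9 and DESeq2 called 6 among 218 genes. The values rested in part on GCas9 replicate 3. Without it the median over the 8 genes still tested was 0.83, Serpina3n differed by 3.03 and passed the threshold (limma adjusted p = 0.00728), Gfap differed by 1.82 and S1pr3 by 0.18.

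Between GCas9 and Cas9 within set A, 8 genes were higher and 1 (Aspg) lower with GCas9, beside 54.3% of all genes above 0, and the median difference was 0.29. The difference was 0.00 for Gfap (95% confidence interval of the fit -1.20 to 1.20), 0.42 for Serpina3n (-0.99 to 1.84), 0.38 for Vim (-0.68 to 1.43) and 0.21 for Osmr (-0.61 to 1.04). Each interval holds 0, and the libraries overlapped for all 9 genes (8.84% of genes did not overlap). None of the 9 passed the threshold (0 genes called, 0%, limma adjusted p of at least 0.955) or had an unadjusted limma p under 0.05 (5.45% of genes), and edgeR and DESeq2 called 0. Without GCas9 replicate 3 the median turned to -0.44 and Gfap to -0.66, so the sign of the median rested on that library.

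**Figure D2:**
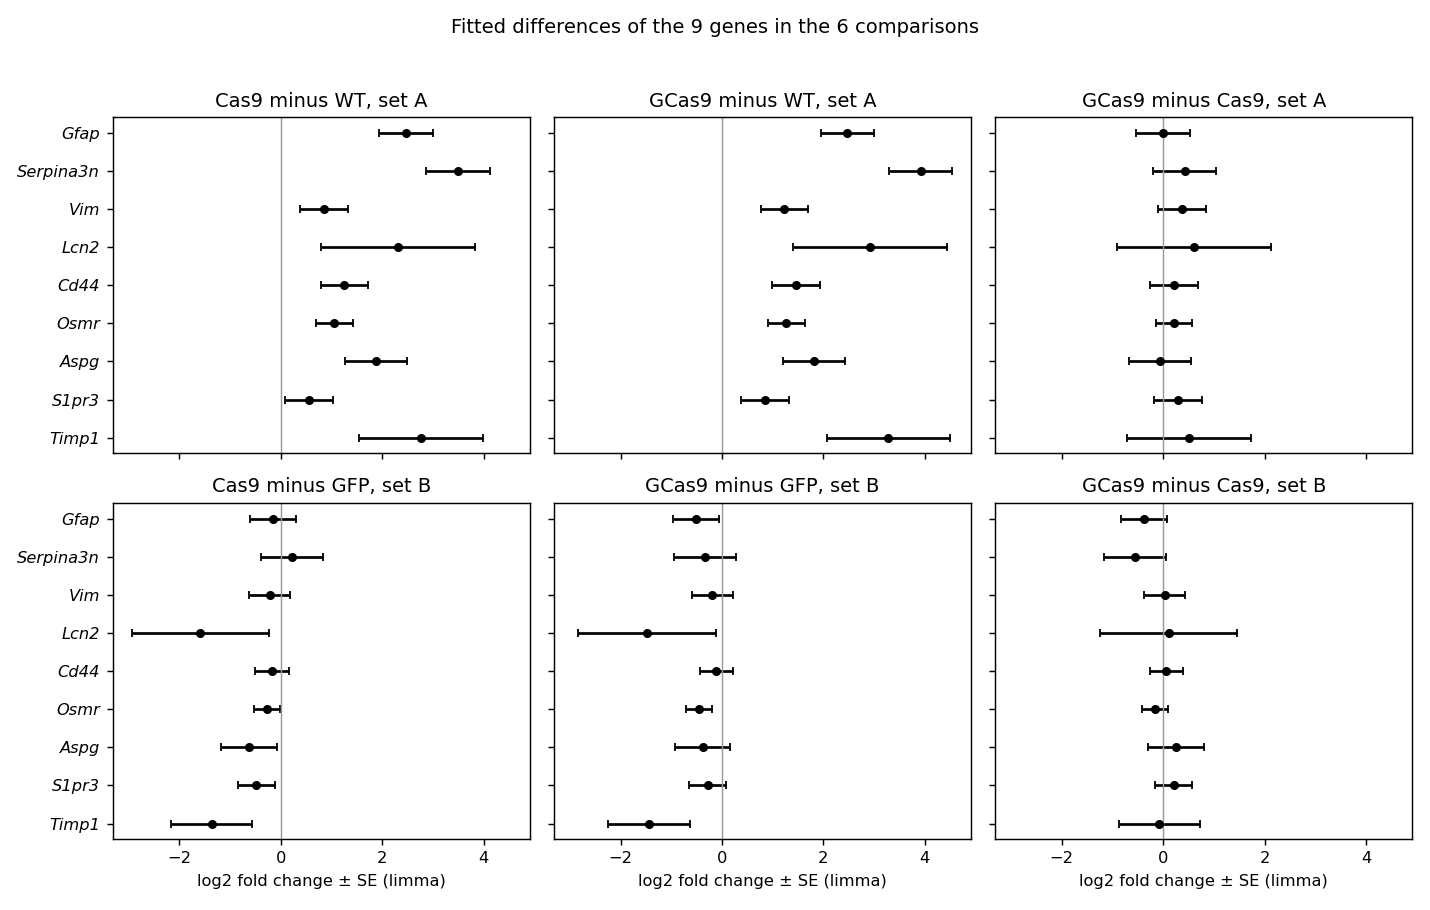
Fitted log2 fold change of each gene (points) with its standard error (bars) in the 3 comparisons of set A (top) and the 3 of set B (bottom). All 9 genes lie above 0 against WT, from 0.56 for S1pr3 with Cas9 to 3.92 for Serpina3n with GCas9, and most lie at or below 0 against GFP.

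In set B, where the reference libraries carried GFP virus, the filament genes overlapped in all groups. Gfap stood at 7209.9, 5135, 7124 and 2903 normalized counts with GFP, at 4777, 6404, 5129.5 and 3274 with Cas9 and at 2662, 9235, 5132 and 1451 with GCas9 (replicates 1 to 4). The lowest and the highest Gfap values of the set were thus both in GCas9 libraries. Vim stood at 524, 293, 551 and 141 with GFP, at 235, 316, 322 and 274 with Cas9 and at 299, 575, 246 and 166 with GCas9.

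The secreted proteins were spread widest. Serpina3n stood at 1547, 475, 1273 and 142 with GFP, at 752, 867, 652 and 581 with Cas9 and at 191, 866, 674 and 476 with GCas9. Its GFP libraries enclosed all 8 others. Lcn2 stood at 96.8, 109, 77.2 and 5.46 with GFP, at 4.52, 76.4, 69.6 and 1.23 with Cas9 and at 7.68, 212, 8.83 and 3.98 with GCas9, so that every group held both low and high libraries. Timp1 stood at 49.5, 26.5, 41.9 and 4.55 with GFP, at 6.78, 13.9, 12.98 and 3.68 with Cas9 and at 4.61, 43.1, 6.42 and 2.39 with GCas9. For Timp1, 3 of 4 GFP libraries were above all 4 Cas9 libraries, and GFP replicate 4 was below 3 of them.

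The receptors and Aspg overlapped as well. Cd44 ran from 39.1 to 113 with GFP (median 88.0), from 48.4 to 93.1 with Cas9 and from 52.2 to 125 with GCas9. Osmr ran from 81.9 to 165 with GFP, from 69.99 to 143 with Cas9 and from 70.1 to 130.3 with GCas9. S1pr3 stood at 318, 241, 327 and 137 with GFP, at 159, 207, 209 and 129 with Cas9 and at 204, 458, 133 and 127 with GCas9. For S1pr3, 3 of 4 GFP libraries lay above all Cas9 libraries. Aspg ran from 12.7 to 56.8 with GFP, from 10.6 to 33.4 with Cas9 and from 12.3 to 68.9 with GCas9.

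Against GFP, 8 genes were lower and 1 (Serpina3n) higher with Cas9, beside 48.7% of all 15428 genes above 0, and the median log2 difference was -0.28. Timp1 differed by -1.36 ± 0.80 (log2, SE), Lcn2 by -1.59 ± 1.35, S1pr3 by -0.49 ± 0.36, Gfap by -0.14 ± 0.45 and Serpina3n by 0.22 ± 0.61. With GCas9 all 9 were lower, beside 49.1% of genes above 0, with a median of -0.38, and Osmr differed by -0.45 ± 0.26, Gfap by -0.52 ± 0.45 and Timp1 by -1.43 ± 0.80. Both comparisons share the GFP libraries. None of the 9 passed the threshold in either (0 genes called, 0%), with smallest limma adjusted p of 0.816 and 0.799. None had an unadjusted limma p under 0.05 (6.24% and 6.48% of genes), and edgeR and DESeq2 called 0. The groups overlapped for all 9, beside 4.68% and 4.16% of genes that did not overlap, and the smallest exact permutation p was 0.143 for Cas9 and 0.171 for GCas9, where 4 against 4 libraries allow 0.0286. The 95% confidence interval of the fit was -1.12 to 0.83 for Gfap with Cas9 and -1.49 to 0.46 with GCas9. Between GCas9 and Cas9, 5 genes were higher and 4 lower (50.6% of genes above 0), the median was 0.03 and none passed the threshold (0 genes called, 0%, limma adjusted p of at least 0.995) or had an unadjusted limma p under 0.05 (3.84% of genes). All 9 overlapped between these groups too, beside 2.02% of genes that did not. The interval of that difference was -1.35 to 0.60 for Gfap and -1.87 to 0.77 for Serpina3n.

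Whether the differences from the reference were larger in set A than in set B was tested in 1 fit over all 21 libraries. For Cas9 all 9 genes had the larger difference in set A, with a median excess of 2.503 (log2), from 1.04 ± 0.64 for S1pr3 to 4.13 ± 1.48 for Timp1. The excess was 2.62 ± 0.76 for Gfap and 3.27 ± 0.98 for Serpina3n. None passed the threshold (2 of 16094 genes called, 0.0124%, smallest limma adjusted p of the 9 = 0.876), and 6 of 9 had an unadjusted limma p under 0.05, beside 4.8% of genes. For GCas9 the excess was also positive for all 9, with a median of 2.20, and was 4.25 ± 0.98 for Serpina3n, 2.99 ± 0.76 for Gfap and 1.71 ± 0.46 for Osmr. None passed (0 genes called, 0%, smallest limma adjusted p = 0.187), and 7 of 9 had an unadjusted limma p under 0.05, beside 8.4% of genes. For the difference between GCas9 and Cas9 it was positive for 8 of 9 with a median of 0.37, and none passed the threshold (0 genes called, 0%) or had an unadjusted limma p under 0.05 (4.34% of genes). The sets differ in the reference (WT or GFP), in depth and in mitochondrial share, which cannot be told apart here.

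Some libraries were high or low for most of the 9 genes, and others were not. In set A, GCas9 replicate 3 held the highest value for 9 of 9 genes and the WT libraries the 3 lowest for 9 of 9. Cas9 replicate 3 was among the 3 highest for all 9 and Cas9 replicate 1 for 8. Relative to the WT mean, GCas9 replicate 3 ran from 4.56-fold (S1pr3) to 178-fold (Lcn2, on few WT reads), with a median of 11.2-fold, and GCas9 replicate 2 had a median of 1.58-fold. In set B, GFP replicate 1 was among the 3 highest of 12 libraries for 9 of 9 genes, GFP replicate 3 for 7 and GCas9 replicate 2 for 7, with the highest value of all for 6. At the other end, GFP replicate 4 was among the 3 lowest for 7 genes and GCas9 replicate 4 for 6. High and low libraries thus occurred within the same group, GFP included. Other libraries of set B had no common place: GFP replicate 2 ran from rank 2 to rank 10 of 12 over the 9 genes, and Cas9 replicate 3 from rank 4 to rank 12.

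**Figure D3:**
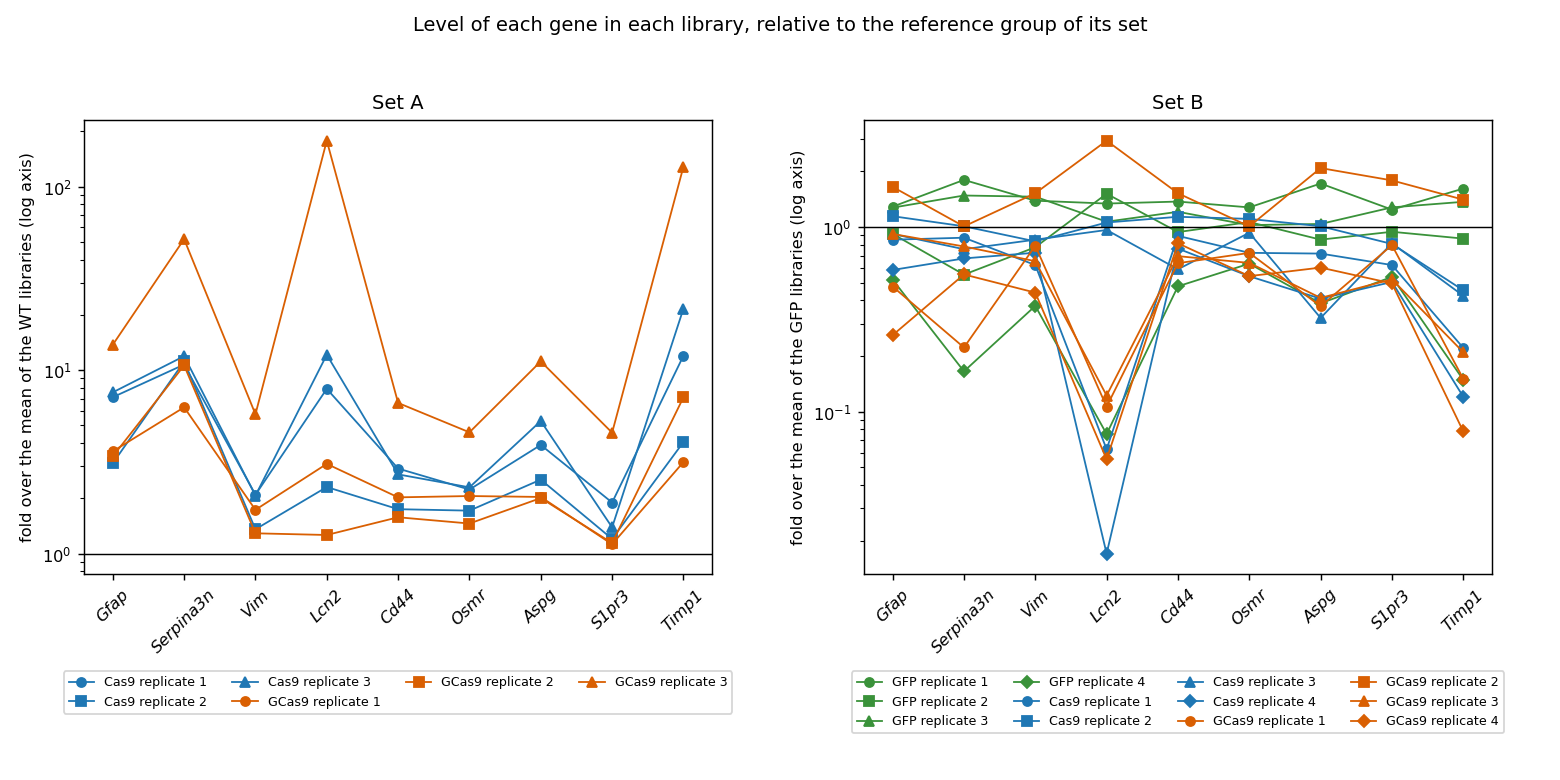
Level of each gene (x axis) in each library divided by the mean of the WT libraries (set A, left) or of the GFP libraries (set B, right), on log axes, with 1 line per library. GCas9 replicate 3 of set A lies above all other lines, with a median of 11.2-fold, and GFP replicates 1 and 4 of set B lie near the top and the bottom of the same group.

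Several lists of markers of other cells and the interferon response genes also differed between the libraries, and their part in the results was not tested. The 12 interferon response genes summed to 437 to 488 normalized counts in WT, to 3963, 706 and 2956 with Cas9 and to 1970.5, 705 and 38649 with GCas9, in replicate order. In set A the library with the highest values of the 9 genes was thus also the one with the highest interferon sum. In set B that sum was 9474, 8275, 9089 and 998 with GFP, 2336, 11986, 15798 and 1305 with Cas9 and 3091, 6338, 1824 and 484 with GCas9. There the top places differed. Cas9 replicate 3 had the highest interferon sum and was among the 3 highest for 0 of the 9 genes. GCas9 replicate 2, the highest for 6 of them, had a lower sum than 5 other libraries. A cut at 6338, the value of GCas9 replicate 2, was taken from these same data. Libraries at or above it had summed counts of the 9 genes, mostly Gfap, from 6523 to 11713, and the others from 2383 to 6354. Gene by gene, this cut split Lcn2, Osmr, S1pr3 and Timp1 without overlap. It did not split Gfap, Serpina3n, Vim, Cd44 and Aspg. The lowest Aspg value of set B (10.6) was in Cas9 replicate 3, which had the highest interferon sum. The 10 macrophage markers summed to 633 to 736 in WT, to 1529 to 2743 with Cas9 and to 1465 to 3403 with GCas9, and all 10 were higher with Cas9 (median log2 difference 1.25). Gpnmb, a membrane glycoprotein gene of this list, rose by 2.94 ± 0.28 with Cas9 and by 3.31 ± 0.28 with GCas9 (log2, SE, limma adjusted p = 0.0383 and 0.0142). The 10 microglia markers summed to 8798 to 10112 in WT, to 10725 to 13839 with Cas9 and to 9727 to 15723 with GCas9. Of 10 T and NK cell markers 8 could be tested, and 7 of these were higher with Cas9 (median log2 difference 2.18) and 7 with GCas9 (1.78), while the list sum was 3389 to 3968 in WT, 3566 to 3892 with Cas9 and 3487 to 4142 with GCas9. Neutrophils store lipocalin 2. Of the 12 neutrophil markers 1 could be tested in set A. It was higher than WT without overlap with Cas9 (log2 difference 0.88) and with GCas9 (0.65), beside 10.7% and 9.16% of genes. The defining gene Ly6g was at 0 in all 21 libraries, and S100a8 reached at most 9.36. The neutrophil list sum was 213 to 247 in WT, 275 to 511 with Cas9 and 247 to 607 with GCas9. Whether neutrophils added to Lcn2 was not tested. Cas9 replicate 1 of set A also held 295572 normalized counts of ependymal and choroid plexus markers, mostly Ttr (280177), against 1512 to 1950.0 in WT, and 20629 of fibroblast and meningeal markers against 5428 to 5529.9. The ependymal and choroid plexus sum was also high in GCas9 replicate 1 of set A (13101) and Cas9 replicate 1 of set B (11275). All 9 oligodendrocyte markers were higher with Cas9 than WT, each with an unadjusted limma p under 0.05, with sums of 232072 to 384191 against 198639 to 239398. With GCas9 2 of 9 were higher. All 10 endothelial markers were higher with Cas9, 6 of them with such a p, with sums of 7799.5 to 9289 against 6416 to 7233. With GCas9 7 of 10 were higher. Beside these counts and those of the lists below, 49.1% of all genes were above 0 with Cas9 and 49.9% with GCas9 against WT. An unadjusted limma p under 0.05 in the upward direction was found for 6.17% of all genes with Cas9. Leaving out Cas9 replicate 1 and GCas9 replicate 3 of set A was a choice made after seeing the data. The median over the 8 genes still tested was then 1.48 for Cas9 and 0.83 for GCas9 against WT.

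A ratio within each library sets the 9 genes against the summed counts of the 16 astrocyte markers. In WT the 9 genes together gave 21.4 ± 2.58 counts per 1000 marker counts (SD, n = 3), with Cas9 of set A 84.8 ± 26.9 (n = 3) and with GCas9 128.8 ± 123 (n = 3). Gfap alone gave 11.6 ± 2.05 in WT, 60.9 ± 23.96 with Cas9 and 81.0 ± 74.1 with GCas9. The markers themselves differed little at the median. With Cas9 16 of 16 were higher than WT at a median of 0.17 (log2), and with GCas9 8 of 16 at a median of -0.0016. Without overlap, 6 of 16 were higher with Cas9 and 3 of 16 with GCas9, beside 10.7% and 9.16% of genes. Among these was Aqp4, the water channel of astrocyte endfeet, at 1673 to 1951 in WT, 2688 to 3326.5 with Cas9 and 2556 to 5163 with GCas9. In set B the Gfap ratio was 128 ± 51.9 with GFP, 104 ± 31.4 with Cas9 and 92.8 ± 67.2 with GCas9 (SD, n = 4 each), and its lowest library, GCas9 replicate 4, stood at 28.9 against a highest WT value of 14.0. For 7 of the 9 genes (all but Vim and Lcn2) the ratio was higher in all 12 libraries of set B than in all 3 WT libraries. The same held for 36.3% of the 16094 genes tested, and the sets were scaled apart and differ in depth and mitochondrial share, which cannot be told apart from the groups.

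**Figure D4:**
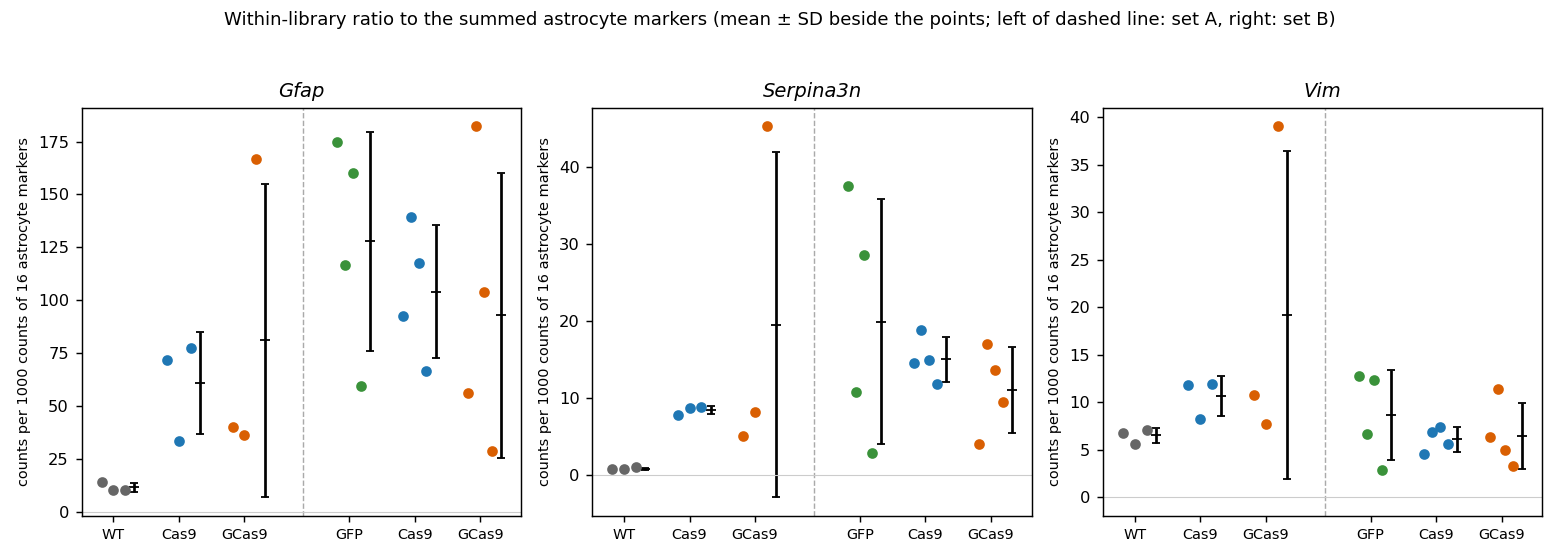
Counts of Gfap, Serpina3n and Vim per 1000 counts of 16 astrocyte markers in the same library, with 1 point per library and mean ± SD beside each group. Gfap is at 10.4 to 14.0 in WT and at 28.9 or more in all other libraries, while Vim in set B reaches down to 2.89, below WT. The sets were scaled apart and differ in depth and mitochondrial share. For 36.3% of genes the ratio is higher in all set B libraries than in all WT libraries.

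Per kilobase of exon, so that levels can be set roughly against each other between genes, Gfap led in every group. The length joins the exons of all annotated transcripts of a gene (12.1 kb for Osmr, 2.62 kb for Lcn2). Where it exceeds the length of the transcripts read, the level is understated, and the order with it is uncertain. In WT the order was Gfap (355 ± 56.5 normalized counts per kb, SD, n = 3), Vim (177 ± 16.5), Serpina3n (52.5 ± 9.43), S1pr3 (28.8 ± 2.36), Cd44 (9.50 ± 1.38), Osmr (8.07 ± 1.47), Aspg (6.42 ± 1.18), Timp1 (1.37 ± 1.19) and Lcn2 (1.30 ± 0.17). Cd44 and Osmr overlapped in their libraries, as did Timp1 and Lcn2, and the other neighbours did not. With Cas9 in set A, Serpina3n (590.5 ± 31.7) stood above Vim (326 ± 74.1) without overlap, and Aspg, Cd44, Timp1, Osmr and Lcn2 overlapped with their neighbours. In set B, Gfap, Serpina3n, Vim and S1pr3 kept the first 4 places in that order in each group, for example 1326.0 ± 482, 416 ± 320, 79.6 ± 41.2 and 57.3 ± 19.7 with GFP (n = 4), where all neighbours overlapped.

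Other genes of the reactive state and of the gp130 pathway were compared as lists, none of which held a gene past the threshold in any comparison described here. Of 4 further genes common to reactive astrocytes (Cxcl10, Cp, Hspb1 and Steap4), 4 were higher with Cas9 than WT in set A at a median log2 difference of 1.12, and 4 with GCas9 at 0.70. Without overlap it was 3 with Cas9 and 2 with GCas9, beside 10.7% and 9.16% of genes. With GCas9, Steap4 stood at 7.67, 6.48 and 47.5 (replicates 1 to 3) against 6.74 to 9.48 in WT. Hspb1 stood at 64.2, 92.9 and 86.0 against 53.9 to 92.0. Cxcl10, a chemokine that interferon induces, stood at 0.86 to 2.97 in WT, 13.8 to 158 with Cas9 and 29.2 to 2449 with GCas9. Of 12 genes of the inflammatory (A1) list, 11 were higher with Cas9 at a median of 1.57 and 10 with GCas9 at 2.26. The complement gene C3 differed by 2.82 and the guanylate-binding protein gene Gbp2 by 2.39 with Cas9. Several genes of that list, such as Gbp2, Iigp1, Psmb8 and the class I genes H2-D1 and H2-T23, are also known targets of interferon. Of 10 tested genes of the ischaemic (A2) list, 9 were higher with Cas9 at a median of 0.42 and 10 with GCas9 at 0.56. In set B the medians of these 3 lists lay between -0.06 and -0.02 with Cas9 and between -0.46 and -0.22 with GCas9.

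Of 16 tested genes for gp130 ligands, receptors and transducers, Osmr among them, 13 were higher with Cas9 than WT in set A at a median of 0.27, and 13 with GCas9 at 0.22. The shared chain Il6st differed by 0.24 ± 0.11 with Cas9 and 0.15 ± 0.11 with GCas9, and the receptor chain Lifr by 0.14 and -0.05. Stat3 stood at 1319 to 1421 in WT, 1507 to 1960.2 with Cas9 and 1539 to 3194 with GCas9, and its log2 difference was 0.37 ± 0.25 and 0.54 ± 0.25. The feedback inhibitor Socs3 stood at 29.3 to 34.7 in WT, 36.5 to 98.1 with Cas9 and 27.0 to 408 with GCas9. The ligand Osm was scarce, at 0 to 1.98 in WT, 8.87 to 13.5 with Cas9 and 0.96 to 29.4 with GCas9. Of 11 tested STAT3 target genes 9 were higher with Cas9 at a median of 0.60 and 10 with GCas9 at 0.84, with Bcl3 at 2.39 and Icam1 at 1.59 (Cas9) and Junb at -0.35. In set B the gp130 medians were -0.08 with Cas9 and -0.21 with GCas9, and those of the STAT3 targets -0.12 and -0.44.

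Further genes related to the 9 by function were compared the same way. In set A the medians with Cas9 and GCas9 against WT were 0.07 and -0.07 for 10 other intermediate filament genes, 0.17 and 0.10 for 8 sphingosine-1-phosphate genes, 0.12 and 0.03 for 13 genes of hyaluronan and CD44 ligands, and 0.04 and -0.05 for 13 metalloproteinases and their inhibitors. They were -0.25 (4 of 4 lower) and 0.08 (2 of 4 lower) for 4 genes that work with lipocalin 2. They were 2.23 and 3.88 for the 2 members of the Serpina3 family that could be tested, Serpina3g and Serpina3m. Serpina3m was at 0 in all WT libraries. It could be tested only because of GCas9 replicate 3, where it stood at 148.

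**Figure D5:**
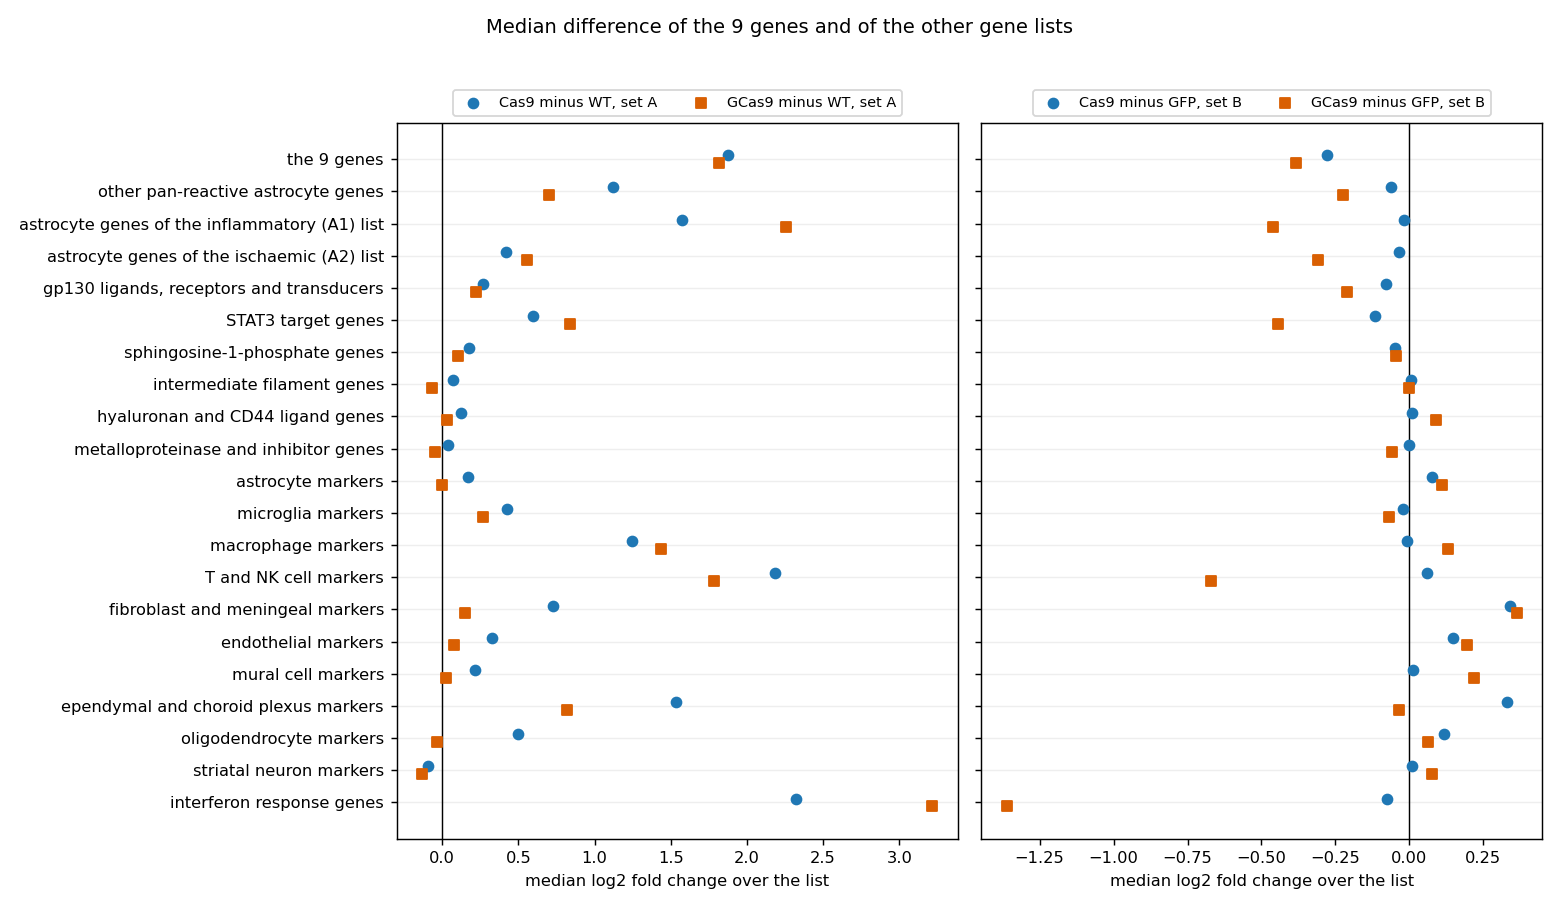
Median log2 fold change of the 9 genes and of the other gene lists, with Cas9 (circles) and GCas9 (squares) against WT in set A (left) and against GFP in set B (right), on different axes. The 9 genes stand at 1.87 and 1.81 in set A and at -0.28 and -0.38 in set B, and the interferon response genes at 3.22 and -1.36 with GCas9.

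Genes with the most similar changes over the libraries, in size as well as course, were found by a root mean square difference. It was taken of log2(normalized count + 1), after subtracting the mean of the WT or GFP libraries of the set. All values of a set share their libraries, so this is a description. For Gfap the nearest over the 9 libraries of set A were C4b (0.29), a complement gene that reactive astrocytes also make, Cd22 (0.30), Acp5 (0.43), Msr1 (0.43) and Bhlha15 (0.45). Over the 12 libraries of set B they were Steap4 (0.26), Naip5 (0.28), Trim14 (0.28), Myo1f (0.28) and Dusp2 (0.30). For Serpina3n they were Itgax, Gpr65, Lilrb4, Gpnmb and Irg1 in set A (0.61 to 0.79) and Cd48, P4ha3, Ifi30, Tspan32 and Birc3 in set B (0.43 to 0.50). For Vim they were Gimap6, Gsdmd, Aif1, Trim25 and Cyba in set A (0.13 to 0.17) and Tmem173, Tapbpl, Itgb2, Capg and Ptpn6 in set B (0.24 to 0.28). Several of these, such as Itgax, Msr1, Aif1 and Itgb2, are genes of myeloid cells. Among the 9 themselves, the places in this order were far apart. Because the distance counts the size of a change, genes that rise in the same libraries by different amounts stand far apart. In set A, GCas9 replicate 3 was the highest library for all 9. In set A, Osmr stood at place 26 from Vim, Cd44 at 77 and S1pr3 at 133, but Aspg at 868, Gfap at 12917, Lcn2 at 13975, Timp1 at 14005 and Serpina3n at 14068. From Gfap in set A the places ran from 21 (Aspg) to 624 (S1pr3). In set B they ran from 92 (Vim) to 13378 (Lcn2) from Gfap, and from 9 (S1pr3) to 13387 (Lcn2) from Vim.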

How the data were processed

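RNA was measured in 21 libraries of mouse striatum. Per the labels' protocols, RNA (integrity number above 8.5) was turned into cDNA with a SMARTer kit and made into libraries with a Nextera XT kit, a route that amplifies cDNA, so reads are not independent molecules. Listed in the submitters' processing notes, without roles or settings, are HTSeq, DESeq2, STAR 2.5.2b, R 3.3.3, SAMtools and the build GRCm38.p3. Values in the deposited table are a signal: counts per symbol that the authors divided by 1 size factor per library. Whole reads were recovered from it for 100% of values within 0.001 reads. Title numbers and the separate scaling distinguish the 2 sets, and all 21 columns were used.

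Log2(normalized count + 1) was fitted with limma 3.58.1 (R 4.3.3, variance trend, two-sided), each set with its 3 groups, for genes with a mean of at least 10. All 9 genes passed that limit in both sets, Timp1 in set A only through GCas9 replicate 3. P-values were adjusted by Benjamini and Hochberg over all genes tested, with 0.05 as the threshold. Fold changes on this scale understate those of scarce genes. Errors are SE for log2 differences and SD for levels. Alternatives were another pseudocount, filter or scaling, array weights, edgeR 4.0.16 and DESeq2 1.42.0 on recovered reads, a replicate block, 2 groups alone and each library left out. Every same-numbered pair of libraries deviated together (correlation above 0.1) between WT and GCas9 of set A (0.112 to 0.284). The same held between Cas9 and GCas9 of set B (0.121 to 0.329), and not in the other 4 comparisons. Among those, Cas9 and GCas9 of set A gave 0.644 and 0.448 for replicates 2 and 3, but 0.090 for replicate 1. This is at most a hint of pairing, which no label gives, because pairs with different numbers were not compared. The procedure was run on simulated counts with large changes in well-read genes and the same dispersion for every gene. That checks the code and not its power or false calls for the 9 genes. The 9 genes, the 23 other lists (256 genes together with the 9, all in the table) and the rule for naming genes were chosen with earlier results of these data known. The rule names all 9 genes, up to 4 genes of smallest p per list, the gp130 genes and the 5 genes nearest to Gfap, Serpina3n and Vim. Aqp4, Osm, Ly6g, S100a8, Ttr and the Serpina3 family in the closing section are outside it and were chosen with their values seen. Promoters came from RefSeq, and exon lengths from GENCODE M21, by symbol.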

Additional observations from a re-analysis of the deposited data

Results flagged for a closer look

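In set B, 1 library stood far from the other 3 of its group for 3 of the 9 genes. In GCas9 replicate 2, Lcn2 was at 212 normalized counts, Aspg at 68.9 and Timp1 at 43.1, each the highest of the 4 GCas9 libraries, with a gap to the next that exceeded, as a share of the whole range, Dixon's limit for 4 values. The test was run on normalized counts without a log, in 27 groups of 4 libraries (9 genes in 3 groups). Chance passes about 1 in 20 only if values are normally distributed, which such counts need not be. The rate for these counts was not tested. The 3 values come from the same library and are not independent. That library also held the highest values of set B for 6 of the 9 genes. Groups of 3 libraries, as in set A, were not tested this way.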

How the results depend on the processing

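Against WT, each of the 9 genes that could be tested stayed higher under every alternative run, and all of those listed under the processing were run. The number of the 9 called did change. With Cas9 it was 8 with array weights (2570 genes called in all), 2 with DESeq2, 1 with the 2 groups alone and 0 to 1 when single libraries were left out. With GCas9 it was 6 with DESeq2 and 0 to 1 when single libraries were left out, the 1 being Serpina3n without GCas9 replicate 3. Without GCas9 replicate 3 and Cas9 replicate 1, a choice made after seeing the data, 1 was called in each, and the Cas9 median was 1.48. The median ran from 1.56 to 2.15 with Cas9 and from 0.83 to 2.22 with GCas9 when single libraries were left out. The causes were not tested.

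Deviations of same-numbered libraries correlated above 0.1 in 6 of 9 pairs of set A and 7 of 12 of set B. With the number as a block, no call among the 9 changed: 0 were called in all 6 comparisons, with smallest limma adjusted p of 0.222 (Cas9 against WT) and 0.156 (GCas9 against WT).

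All reversals were of log2 differences that had not passed the threshold, between GCas9 and Cas9 or against GFP, and their cause was not tested. For GCas9 against Cas9 in set A, TMM scaling gave -0.0040 for Gfap. Array weights gave -0.79 for Gfap, -0.45 for Serpina3n, -0.13 for Vim, -1.34 for Lcn2, -0.28 for Cd44, -0.11 for Osmr, -0.11 for S1pr3 and -1.58 for Timp1. Aspg was 0.35 with edgeR and 0.37 with DESeq2. Without GCas9 replicate 3 and Cas9 replicate 1, Gfap was -0.47, Serpina3n -0.50, Vim -0.17, Lcn2 -1.31, Cd44 -0.28, Osmr -0.19 and S1pr3 -0.19. Leaving out single libraries gave -0.66 to 0.35 for Gfap, -0.46 to 1.06 for Serpina3n, -0.27 to 0.81 for Vim, -1.49 to 1.93 for Lcn2, -0.42 to 0.61 for Cd44, -0.25 to 0.57 for Osmr, -0.87 to 0.35 for Aspg, -0.37 to 0.63 for S1pr3 and -0.086 to 1.52 for Timp1.

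For GCas9 against Cas9 in set B, a pseudocount of 5 gave -0.019 for Lcn2 and 0.041 for Timp1, and quantile normalization gave 0.23 for Timp1. Array weights gave -0.056 for Vim, -0.27 for Lcn2 and -0.058 for Cd44. Timp1 was 0.53 with edgeR and 0.58 with DESeq2. Leaving out single libraries gave -0.81 to 0.075 for Gfap, -0.30 to 0.29 for Vim, -1.10 to 0.86 for Lcn2, -0.21 to 0.22 for Cd44, -0.29 to 0.52 for Aspg, -0.19 to 0.42 for S1pr3 and -0.84 to 0.39 for Timp1. For Cas9 against GFP, Serpina3n was -0.27 with edgeR and -0.27 with DESeq2. Leaving out single libraries there gave -0.43 to 0.036 for Gfap, -0.47 to 0.67 for Serpina3n, -0.63 to 0.028 for Vim and -0.49 to 0.012 for Cd44. For GCas9 against GFP it gave -1.02 to 0.12 for Serpina3n, -0.60 to 0.075 for Vim and -0.42 to 0.078 for Cd44.

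Depth limits Lcn2 and Timp1, which had 11 and 4 reads over the 3 WT libraries. Groups of 3 or 4 libraries limit all tests.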

Other observations

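The relatives of Serpina3n in its gene family, which are similar in sequence, were read far less than it, and 2 of 10 passed the limit for testing. Serpina3a, Serpina3b and Serpina3j were at 0 normalized counts in all 21 libraries, and Serpina3k reached at most 0.95. Serpina3g, a protease inhibitor of leukocytes, stood at 0, 4.31 and 0.99 in WT, at 28.1, 3.94 and 22.2 with Cas9 and at 16.3, 5.40 and 145 with GCas9 of set A, with log2 differences from WT of 2.77 ± 1.19 and 3.53 ± 1.19 (SE, limma adjusted p = 0.418 and 0.724). Serpina3m was at 0 in WT, at 0, 32.5 and 0 with Cas9 and at 0, 43.2 and 148 with GCas9. In set A it passed the limit for testing only through GCas9 replicate 3. How reads that fit more than 1 of these genes were counted is not given in the sources used here, so part of these values may belong to Serpina3n.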
